A study of Mus musculus with 11 samples.

Results

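Neutrophils, the short-lived phagocytes of the blood and the first leukocytes to enter inflamed lung, were followed here through 10 genes that they express, in lung tissue of 129S1 mice. The genes were Csf3r, Cxcr2, Il1r2, Trem1 and Clec4d, which encode receptors, S100a8 and S100a9, Mmp8 and Mmp9, and Retnlg. They were taken as a fixed list of symbols, and all 10 were found among the 19938 genes measured, each on a single row of the deposited table. Lung RNA was read on 11 arrays: 2 from mice labelled untreated control, 3 from mice given aspirin at 4 mg per kg, 3 from mice given triptolide at 1 mg per kg and 3 from mice given both at those doses. Aspirin inhibits the cyclooxygenases that make prostaglandins, and triptolide is a diterpenoid of the thunder god vine that blocks transcription. Dosing was by oral gavage on 5 days of each week over 2 months. A PBS group stands in the treatment protocol where the titles say untreated control, and it is not settled whether the controls were gavaged. Sex, age, a disease model and whether each array is a separate animal are not given in the labels, so p-values measure only the spread between these samples. All groups share the strain and the tissue. In RNA of whole tissue, more neutrophils and more RNA of these genes per cell cannot be told apart.

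Neutrophils are made in bone marrow under granulocyte colony-stimulating factor, which acts through the receptor encoded by Csf3r. They leave the marrow and enter tissue along CXC chemokines, which Cxcr2 senses, and many are held in the capillaries of the lung. Their granules are filled in a fixed order, with myeloperoxidase and elastase made in the earliest precursors, lactoferrin later, and the protease of Mmp9 late. S100a8 and S100a9 together form calprotectin, the main cytosolic protein of the mature cell.

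Values are log2 levels, so a difference of 1 is a doubling. Sftpc, the surfactant gene of alveolar type 2 cells, read 13.62 to 14.27 over the 11 arrays and Scgb1a1, of airway club cells, 13.75 to 14.08. These markers of lung were thus present on every array. Correlations between arrays over all genes ran from 0.9474 to 0.9965, and combination 1 had the lowest best match, at 0.9597. Combination 1 also had list levels of 3.16 for red cell genes and 2.73 for genes of dividing cells, against at most 0.64 and -0.05 on the other arrays. A list level is the mean of its genes after each gene's mean over the 11 arrays is subtracted. For lung epithelium the level was lowest on combination 1, at -0.60 against -0.03 to 0.21 elsewhere. Endothelium was lowest there too, at -0.72 against -0.35 to 0.40. Xist, the X-inactivation RNA of female cells, was at 11.98 and 12.07 on the controls, at 6.77 to 7 on the aspirin arrays, at 12.32, 9.75 and 6.61 on triptolide 1, 2 and 3, and at 12.26 to 12.8 on the combination arrays. The mean of 3 Y-linked genes was 5.94 and 5.81 in control and 8.88 to 9.09 with aspirin. It was 6.55, 9.36 and 9.08 with triptolide and 5.67 to 6.73 with the combination. Aspirin and this difference in sex-linked genes cannot be told apart in the comparison of aspirin with control. The same limit holds for the combination against aspirin, where Xist differed by 5.58, and for the interaction, where it differed by 8.05. Comparisons with triptolide share it in part, as its arrays were mixed in these genes. Within the aspirin group aspirin 2 was like the others in Xist, at 6.86.

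All 10 neutrophil genes had their highest level on the same array, aspirin 2, where 5.78% of all genes had theirs. Against the mean of the 2 controls, aspirin 2 was 24.2-fold higher in Mmp8, 18.3-fold in S100a8, 17.1-fold in Retnlg and 13.3-fold in S100a9. The lowest excess on that array was 2.67-fold, in Trem1. All 10 genes exceeded the mean of the controls by more than 1 on the log2 scale there, as did 0.672% of all genes, and the median of the 10 was 3.17 against -0.04 over all genes. On aspirin 1 and aspirin 3 the same median was 0.11 and -0.10, and none of the 10 exceeded the controls by 1, as 0.0351% and 0.1404% of all genes did. The excess in the aspirin group was thus carried by 1 of its 3 arrays.

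**Figure D1:**
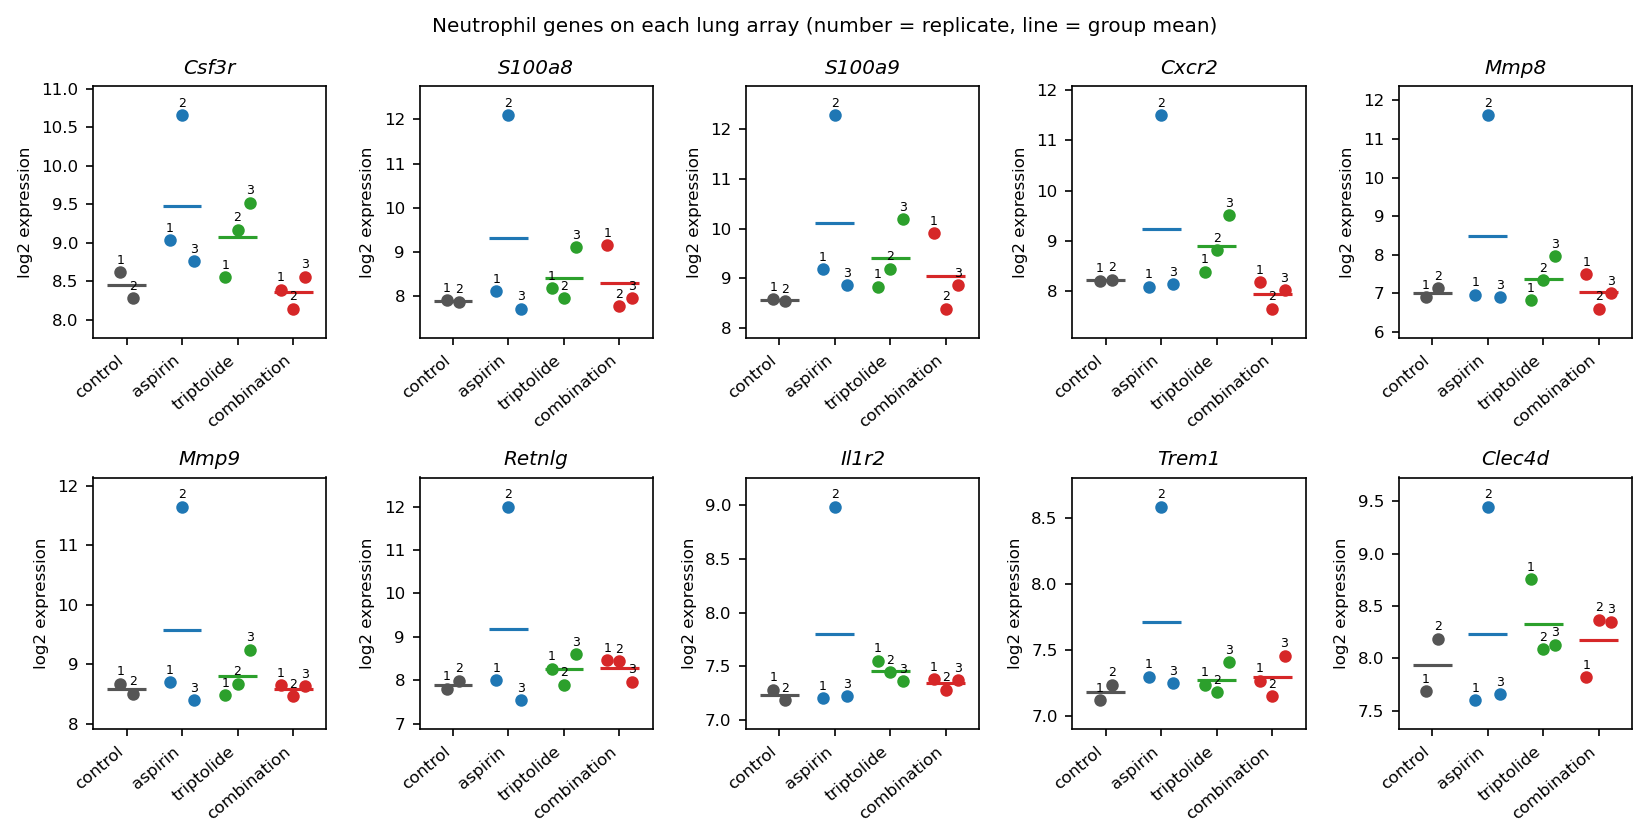
Each panel plots the log2 level (y axis, own scale per gene) of a neutrophil gene on the 11 lung arrays by group (x axis); points are arrays numbered by replicate and lines are group means. Aspirin 2 is the highest point in all 10 panels.

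Among the receptors, Csf3r, which keeps the lineage alive, read 8.62 and 8.28 in control, 9.03, 10.66 and 8.76 with aspirin, 8.55, 9.17 and 9.52 with triptolide, and 8.39, 8.14 and 8.56 with the combination. All 3 aspirin arrays lay above both controls, and triptolide 2 and 3 did so too. Cxcr2, the receptor for chemokines such as those of Cxcl1 and Cxcl2, read 8.21 and 8.23 in control, 8.09, 11.5 and 8.14 with aspirin, 8.39, 8.82 and 9.51 with triptolide, and 8.18, 7.65 and 8.02 with the combination. All triptolide arrays lay above the controls, and all combination arrays, aspirin 1 and aspirin 3 lay below them.

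The other receptors spanned less. Il1r2, a decoy receptor that binds interleukin-1 without signalling, read 8.99 on aspirin 2 and 7.18 to 7.55 on the other 10 arrays, with triptolide 1 next. Trem1, an activating receptor that signals through the adaptor Tyrobp, read 8.59 on aspirin 2 and 7.12 to 7.46 elsewhere. Both were thus nearly flat outside a single array, with a range of 0.37 and 0.34. Their means over the arrays stood low, at percentiles 24.9 and 23 of all genes. With no background level given, a steady level and a reading near the floor cannot be told apart. Clec4d, a C-type lectin that senses mycobacterial and fungal glycolipids, had another order of arrays. It read 7.69 and 8.19 in control, 7.6, 9.45 and 7.66 with aspirin, 8.76, 8.09 and 8.13 with triptolide, and 7.82, 8.37 and 8.35 with the combination. Aspirin 2 was 1.61-fold above triptolide 1 in Clec4d, the smallest such gap of the 10 genes, and aspirin 1 and 3 were the lowest arrays.

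S100a8 and S100a9, the calprotectin pair, were high on more than 1 array. S100a8 read 7.92 and 7.88 in control, 8.12, 12.1 and 7.72 with aspirin, 8.19, 7.96 and 9.11 with triptolide, and 9.16, 7.78 and 7.96 with the combination. S100a9 read 8.58 and 8.54 in control, 9.18, 12.29 and 8.86 with aspirin, 8.83, 9.19 and 10.19 with triptolide, and 9.91, 8.38 and 8.86 with the combination. After aspirin 2, both genes were highest on triptolide 3 and combination 1, and the other arrays of those groups lay lower.

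The secreted proteins were set apart on aspirin 2. Mmp8, the collagenase of neutrophil granules, read 6.9 and 7.13 in control, 6.97, 11.62 and 6.9 with aspirin, 6.83, 7.34 and 7.97 with triptolide, and 7.49, 6.6 and 7.01 with the combination. Retnlg, a resistin-like protein of neutrophils and marrow, read 7.81 and 7.99 in control, 8, 12 and 7.54 with aspirin, 8.27, 7.9 and 8.6 with triptolide, and 8.47, 8.44 and 7.97 with the combination. Mmp9, the gelatinase, read 11.65 on aspirin 2 and 8.39 to 9.24 on the other 10. In all 3 genes triptolide 3 came next, and aspirin 2 exceeded it 12.52-fold in Mmp8, 10.52-fold in Retnlg and 5.33-fold in Mmp9.

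RefSeq promoters (build GRCm38.p6) were found for 9 of the 10 genes, all but Mmp9. The 250 bases before the start of transcription are shown for the 4 genes with the largest excess on aspirin 2, because these genes were high together. Capitals mark the core motif of C/EBP factors, TTNNGCAA or TTGCNNAA on the other strand, where N is any base, and that of PU.1, GAGGAA or TTCCTC; C/EBP factors and PU.1 direct the neutrophil programme, and no match of either overlapped the other. The stretches are Mmp8 at chr9:7558179-7558428 (+), S100a8 at chr3:90668821-90669070 (+), Retnlg at chr16:48872358-48872607 (+) and S100a9 at chr3:90695722-90695971 (-).
Mmp8: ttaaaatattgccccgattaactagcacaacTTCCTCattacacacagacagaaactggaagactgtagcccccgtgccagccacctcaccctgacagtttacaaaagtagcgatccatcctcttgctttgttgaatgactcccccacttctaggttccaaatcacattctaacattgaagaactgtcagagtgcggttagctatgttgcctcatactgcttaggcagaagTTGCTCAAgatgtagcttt
S100a8: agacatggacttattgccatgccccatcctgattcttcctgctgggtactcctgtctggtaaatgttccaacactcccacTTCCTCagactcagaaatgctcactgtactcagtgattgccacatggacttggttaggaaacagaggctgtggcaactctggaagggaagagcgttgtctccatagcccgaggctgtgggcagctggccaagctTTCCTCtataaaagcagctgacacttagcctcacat
Retnlg: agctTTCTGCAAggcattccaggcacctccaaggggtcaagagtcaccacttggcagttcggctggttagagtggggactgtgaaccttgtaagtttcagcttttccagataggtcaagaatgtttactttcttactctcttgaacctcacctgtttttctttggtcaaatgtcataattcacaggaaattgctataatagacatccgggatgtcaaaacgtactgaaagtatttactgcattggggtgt
S100a9: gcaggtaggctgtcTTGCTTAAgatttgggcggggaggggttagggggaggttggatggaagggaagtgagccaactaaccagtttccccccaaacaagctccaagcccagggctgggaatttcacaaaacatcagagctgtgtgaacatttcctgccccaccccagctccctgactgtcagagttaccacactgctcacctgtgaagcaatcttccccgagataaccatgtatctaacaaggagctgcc
Mmp8 had the C/EBP letters 19 bases and the PU.1 letters 219 bases before its start. S100a8 had the PU.1 letters at 170 and 36 bases, and Retnlg and S100a9 had the C/EBP letters at 246 and 236 bases. Of the 9 promoters, 3 held the C/EBP letters and 6 the PU.1 letters, where 9.56% and 23.3% of all 32851 promoters of that length did. A match describes letters and was not tested as a binding site.

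The comparison of aspirin with control asks what aspirin alone does to these genes. All 10 lay higher on average, by a median of 1.03 against 0 over all genes, but limma passed 0 of the 10 at an adjusted p under 0.05, as it passed 0% of the 19938 genes. At an unadjusted p under 0.05 it gave 1 member and 609 genes. Differences ran from 0.30 ± 0.47 (SE) in Clec4d to 1.55 ± 0.86 in S100a9, with Mmp8 at 1.48 ± 1.11, S100a8 at 1.41 ± 1.03, Retnlg at 1.28 ± 0.99, Csf3r at 1.03 ± 0.47, Cxcr2 at 1.02 ± 0.81, Mmp9 at 0.99 ± 0.73, Il1r2 at 0.57 ± 0.42 and Trem1 at 0.54 ± 0.32. Each had a limma adjusted p of 1. The spread within the group was as large as the difference: for Mmp8 the aspirin mean was 8.5 ± 2.7 (SD, n = 3), beside a control mean of 7.02 ± 0.16 (SD, n = 2). All aspirin arrays lay above both controls in 3 of the 10 genes, Csf3r, S100a9 and Trem1, where 10.05% of all genes did, and wholly below them in 0, where 16.00% did.

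Without aspirin 2 the aspirin difference had a median of -0.03 over the 10 genes, with 4 above control and 6 below. Csf3r stood at 0.45 ± 0.28 and S100a9 at 0.46 ± 0.49, while Cxcr2 was at -0.10 ± 0.30, Mmp8 at -0.08 ± 0.34 and Clec4d at -0.31 ± 0.26. None of the 10 passed in that fit, where the smallest limma adjusted p of a member was 0.981. Leaving out aspirin 1 or aspirin 3 instead left all 10 above control.

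**Figure D2:**
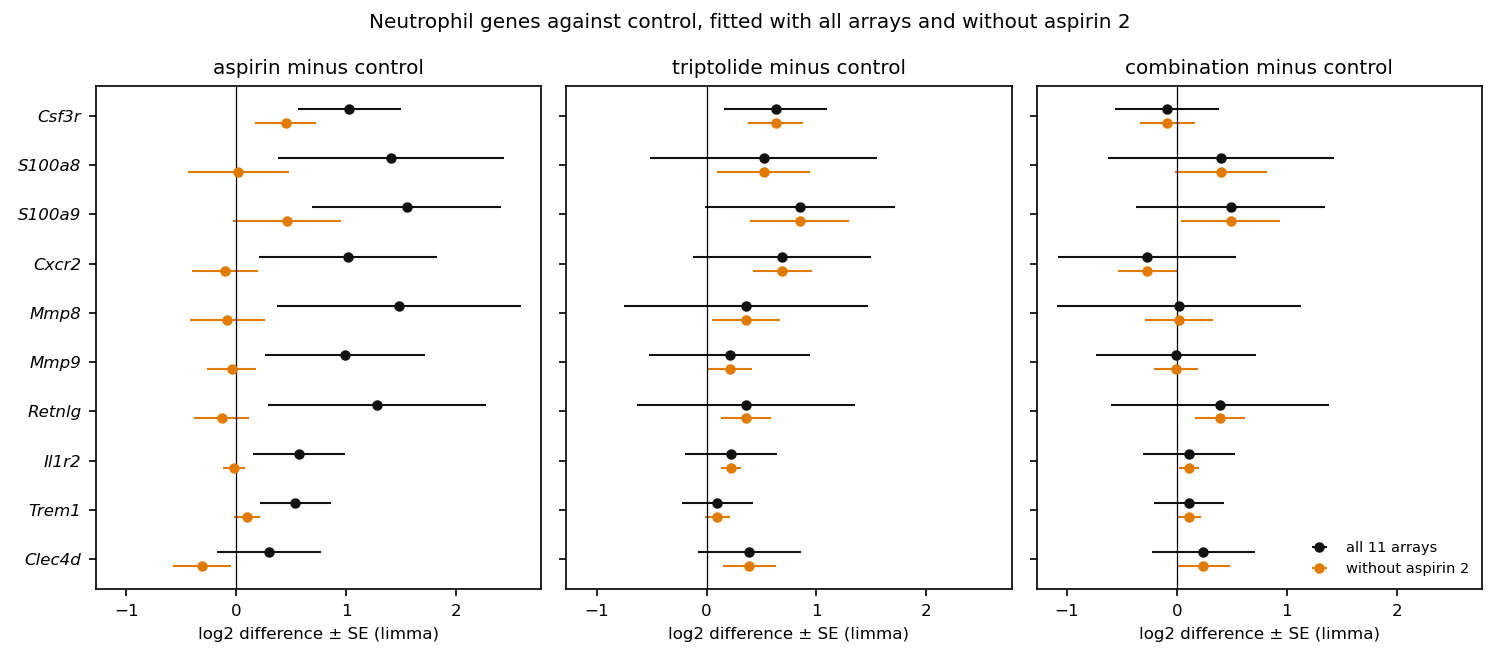
Points are log2 differences of the 10 neutrophil genes from control and bars their SE in the limma fit (x axis), for aspirin, triptolide and the combination, with all 11 arrays (black) and without aspirin 2 (orange). Leaving out that array moves the median aspirin difference from 1.03 to -0.03 and shortens the bars in all 3 panels.

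Triptolide against control asks the same of the other drug. All 10 genes lay above control on average, by a median of 0.38 against -0.01 over all genes, and 0 of the 10 passed in limma, as did 0% of all genes; at an unadjusted p under 0.05 there were 0 members and 561 genes. The largest differences were S100a9 at 0.85 ± 0.86, Cxcr2 at 0.69 ± 0.81 and Csf3r at 0.63 ± 0.47, and the smallest was Trem1 at 0.10 ± 0.32, each with a limma adjusted p of 1. In 4 genes, S100a8, S100a9, Cxcr2 and Il1r2, every triptolide array lay above both controls, where 9.92% of all genes did so, and in 0 every one lay below, where 13.3% did. Fitted without aspirin 2, whose spread enters the shared error, 3 of the 10, Cxcr2, Csf3r and Il1r2, had unadjusted p-values under 0.05, at 0.0305, 0.0329 and 0.0376, as had 2.98% of all genes. Their limma adjusted p stayed at 1.

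The median excess of the 10 genes over the mean of the controls was 0.22 and 0.18 on triptolide 1 and 2. Triptolide 3 stood highest, at 0.83. It was the highest triptolide array in 8 of the 10 genes, and exceeded the mean of the controls 3.1-fold in S100a9, 2.44-fold in Cxcr2, 2.31-fold in S100a8 and 2.1-fold in Csf3r. These 4 genes passed a log2 excess of 1 there, where 0.266% of all genes did, and no neutrophil gene did on triptolide 1 or 2, where 0.186% and 0.341% did. Il1r2 and Clec4d were highest on triptolide 1 within the group, at 7.55 and 8.76. Without triptolide 3 the median difference was 0.22, with 9 of 10 genes above control and 1 below. Cardiac muscle genes stood at a list level of 0.96 on triptolide 3, against -0.13 and -0.28 on triptolide 1 and 2. Monocyte genes stood at 0.35 on triptolide 3, against -0.14 and -0.02 on the same 2 arrays, and Xist was 6.61 on triptolide 3. The part of these genes in the result was not tested.

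The combination against control asks what both drugs together do. The genes lay on both sides, 7 above and 3 below control, with a median of 0.11 against 0.01 over all genes, and limma passed 0 of 10, as it passed 0% of all genes. At an unadjusted p under 0.05 it gave 0 members and 2795 genes. S100a9 differed by 0.49 ± 0.86, with a 95% interval from -1.41 to 2.39, S100a8 by 0.40 ± 1.03 and Cxcr2 by -0.27 ± 0.81, with an interval from -2.07 to 1.52, and their limma adjusted p-values were 0.863, 0.909 and 0.923. Both intervals reach past a change of 1 in either direction. Combination arrays lay wholly above both controls in 0 of the 10 genes, where 14.2% of all genes did, and wholly below in 1, Cxcr2, where 20.5% did.

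Combination 1 held the excess of the calprotectin pair, which it exceeded the controls in by 2.39-fold for S100a8 and 2.55-fold for S100a9, the only neutrophil genes past a log2 excess of 1 on that array. Of all genes, 2.97% passed that excess there. On combination 2 and 3 none of the 10 did, where 0.401% and 0.196% of all genes did. Without combination 1, S100a8 differed from control by -0.03 and the median of the 10 was 0.01, with 5 genes above and 5 below. Csf3r and Cxcr2 on combination 1 were within 0.06 of the controls' mean, so this array had the calprotectin genes high and the receptors level with control.

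**Figure D3:**
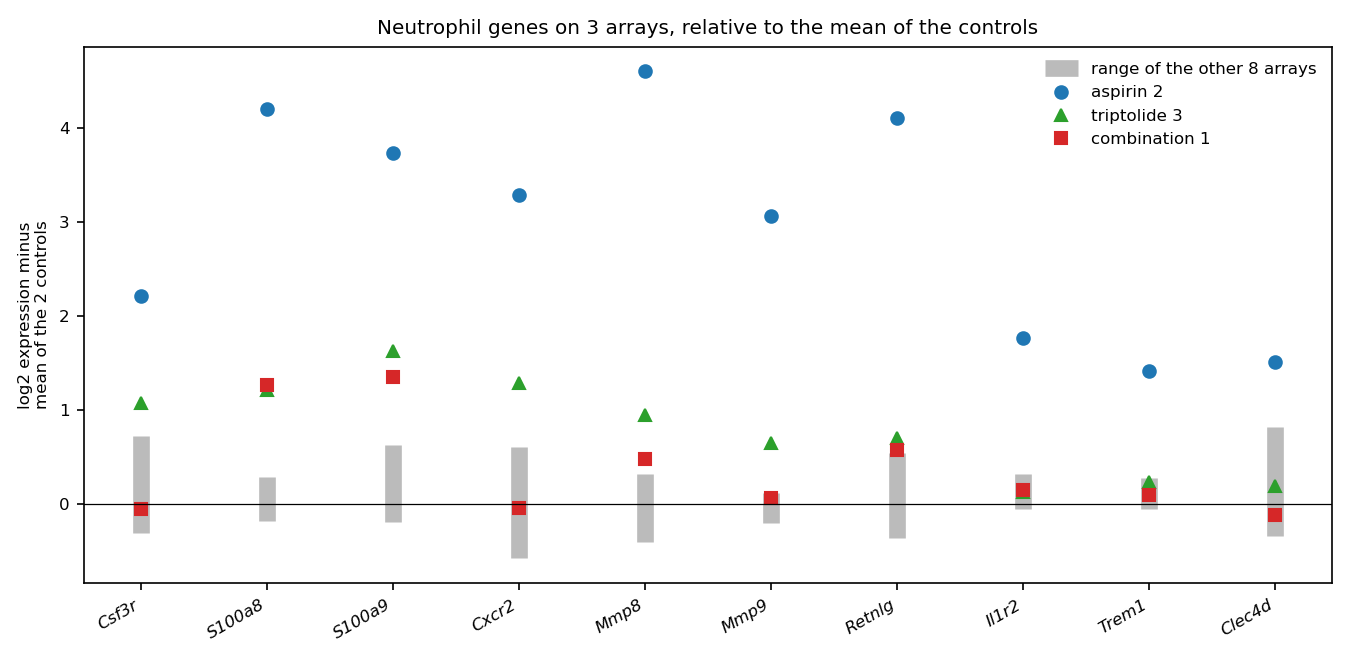
The y axis gives the log2 level of each neutrophil gene (x axis) minus the mean of the 2 controls, for aspirin 2, triptolide 3 and combination 1; grey bars span the other 8 arrays, controls included. Aspirin 2 lies between 1.41 and 4.6 in every gene, triptolide 3 is above 1 in S100a9, Cxcr2, S100a8 and Csf3r, and combination 1 in S100a9 and S100a8.

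Between the treated groups, the combination lay below aspirin in all 10 genes, by a median of -1.01, from -1.46 ± 0.99 in Mmp8 to -0.06 ± 0.42 in Clec4d. Csf3r differed by -1.12 ± 0.42, at a limma adjusted p of 0.334 and an unadjusted p of 0.0217, and was the only one of the 10 in which every combination array lay below every aspirin array, where 9.86% of all genes did; 0 of the 10 lay wholly above, where 5.47% did. Without aspirin 2 the median was 0.07, and Csf3r was at -0.54 ± 0.25. Against triptolide alone the combination had a median of -0.18, with Cxcr2 at -0.96 ± 0.73 and Csf3r at -0.72 ± 0.42, and Retnlg at 0.04 ± 0.88. Cxcr2 alone of the 10 lay lower on every combination array than on every triptolide array, where 9.53% of all genes did, and 0 lay higher on every array, where 8.36% did. Aspirin exceeded triptolide by a median of 0.57, from -0.09 ± 0.42 in Clec4d to 1.11 ± 0.99 in Mmp8, with a median of -0.42 without aspirin 2. In 0 of the 10 did those groups not overlap, where 3.997% of all genes lay wholly above and 5.89% wholly below. limma passed 0 of the 10 and 0% of all genes in each of these comparisons.

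The interaction of the drugs, which is the combination minus both single drugs plus control, was below 0 in all 10 genes, with a median of -1.39 against 0.01 over all genes. Cxcr2 had -1.98 ± 1.09, Csf3r -1.75 ± 0.63 and Clec4d -0.44 ± 0.63. None passed, at a limma adjusted p of 0.895 for Csf3r, whose unadjusted p of 0.0179 was the smallest of the 10, and 0% of all genes passed. Without aspirin 2 the median interaction was -0.16, and Csf3r still had -1.17 ± 0.36, at an adjusted p of 0.998. These comparisons share arrays with the ones against control and are not separate evidence.

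Other genes of mature neutrophils were also high on aspirin 2. Among 13 further receptor and surface genes 9 were highest there, as were 10 of 11 other genes enriched in mature cells. Ly6g, the surface antigen by which mouse neutrophils are stained, read 10.78 on aspirin 2, 6.74 and 6.45 on aspirin 1 and 3, 6.51 and 6.71 in control and 7.3 on triptolide 3. Slfn4 read 10.16 against 7.4 to 8.03 elsewhere, and Clec4e, a lectin receptor that pairs with Clec4d, 9.67 against 7.74 to 9.35. Against control, aspirin differed by 1.38 ± 1.00 in Ly6g, 1.07 ± 0.56 in Slfn4, 0.71 ± 0.36 in Stfa2, 0.44 ± 0.25 in Grina, 0.38 ± 0.53 in Clec4e and 0.27 ± 0.38 in Ccr1, each at a limma adjusted p of 1. Passing genes numbered 0 of 13 and 0 of 11 in each direction, with medians of 0.15 and 0.24.

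Granule genes of earlier stages were highest on another array. All 7 genes of primary granules and promyelocytes were highest on combination 1, where 19.02% of all genes had their highest level. There Mpo, of myeloperoxidase, read 8.84 and Elane, of neutrophil elastase, 9.15, against 7.24 to 8.07 and 7.51 to 8.22 on the other arrays. On aspirin 2 Mpo and Elane read 8.07 and 8.22, and that array came next in both, as in Prtn3, Ctsg and Ms4a3. Cebpe and Gfi1 read 7.54 and 7.51 there, below both controls. Their peak on combination 1 was slight, at 7.85 and 7.9 against 7.84 and 7.83 on combination 2. The list level was 0.14 on aspirin 2 and 0.64 on combination 1. Against control, aspirin differed by 0.36 ± 0.21 in Ctsg, 0.21 ± 0.35 in Mpo and 0.20 ± 0.17 in Prtn3, and the combination by 0.57 ± 0.21 in Ctsg. Of the 7, 0 passed in limma in either direction. The 3.16 of the red cell list and the 2.73 of the dividing cell list stand on the same array, and their part was not tested.

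Genes of later granules were split. Ngp, of neutrophilic granule protein, read 10.8 on aspirin 2, 10.04 on combination 1, 8.6 on triptolide 3 and 6.7 to 7.79 elsewhere, the same 3 arrays that were high in S100a8 and S100a9. Ltf, of lactoferrin, was highest on combination 2, at 10.38, with 9.85 on combination 1 and 9.73 on aspirin 2, and 7.65 and 8.06 in control. Aspirin against control gave 1.23 ± 1.17 in Ngp, 0.71 ± 0.60 in Ltf and -0.61 ± 0.31 in Cybb, of the phagocyte oxidase. The combination against control gave 1.73 ± 0.60 in Ltf and 1.48 ± 0.52 in Cd177, a surface protein of neutrophils named here after its values were seen, with limma adjusted p-values of 0.228 and 0.233. Of 10 such genes 0 passed in either direction in any comparison against control, and the medians were 0.14 for aspirin, 0.22 for triptolide and 0.27 for the combination.

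Of 15 ligands that recruit or sustain neutrophils, 2 were highest on aspirin 2. Ppbp, a chemokine of platelets that also acts on Cxcr2, read 13.2 there and 7.85 to 11.96 elsewhere, and Il1b, of interleukin-1 beta, 9.94 there and 8.59 to 9.89 elsewhere. Csf3, the gene of granulocyte colony-stimulating factor, read 7.19 on aspirin 2 and 7.05 to 7.44 elsewhere, and the Cxcr2 ligand genes Cxcl1 and Cxcl2 read 8.17 and 6.85, where the 11 arrays ranged from 8.17 to 8.65 and from 6.74 to 7.61. With aspirin, 7 of the 15 lay above control and 8 below, with a median of -0.07, and 0 passed. The largest differences were Ppbp at 2.85 ± 1.09, Il1b at 0.53 ± 0.34 and Hc, of complement C5, at -0.53 ± 0.33. Among 17 partners of the 10 genes 8 lay above control and 9 below, with a median of -0.01 and 0 passing. Cebpd, a transcription factor of myeloid cells, differed by 0.45 ± 0.20, Cxcr1 by -0.37 ± 0.41 and Fcer1g, the adaptor of Clec4d, by -0.26 ± 0.28. Tyrobp, which Trem1 needs, read 10.97 on aspirin 2 and 10.13 to 10.85 elsewhere.

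Markers of other cells were read on the same arrays. All 10 platelet genes were highest on aspirin 2, at list levels of 0.11, 1.51 and 0.50 on aspirin 1, 2 and 3, -0.43 and -0.45 in control, -0.45 to -0.11 with triptolide and -0.60 to 0.61 with the combination. The neutrophil level was -0.31, 2.55 and -0.49 on the 3 aspirin arrays, so aspirin 3 had platelet genes above control without neutrophil genes. Red cell genes stood at 0.64 on aspirin 2, against -0.34 and 0.24 on aspirin 1 and 3, and cardiac genes at 0.57 against -0.04 and 0.08. Of the 6 red cell genes measured, 1, Alas2, was highest on aspirin 2, at 12.73 against 10.62 and 10.52 in control, and 5 on combination 1. Slc4a1 read 11.21 on aspirin 2 and 8.44 and 8.41 in control, while Klf1 read 7.24 against 7.22 and 7.29. Monocyte genes stood at 0.21 on aspirin 2, alveolar macrophage genes at 0.07, eosinophil genes at -0.14 and genes of mast cells and basophils at 0.05. The monocyte genes were split, and 3 of 9 were highest on aspirin 2. F13a1 read 10.47 there and 8.82 to 9.79 elsewhere, while Cx3cr1 read 8.82 there and 8.80 to 9.18 elsewhere. The part of platelets, red cells and heart tissue in the neutrophil result was not tested.

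**Figure D4:**
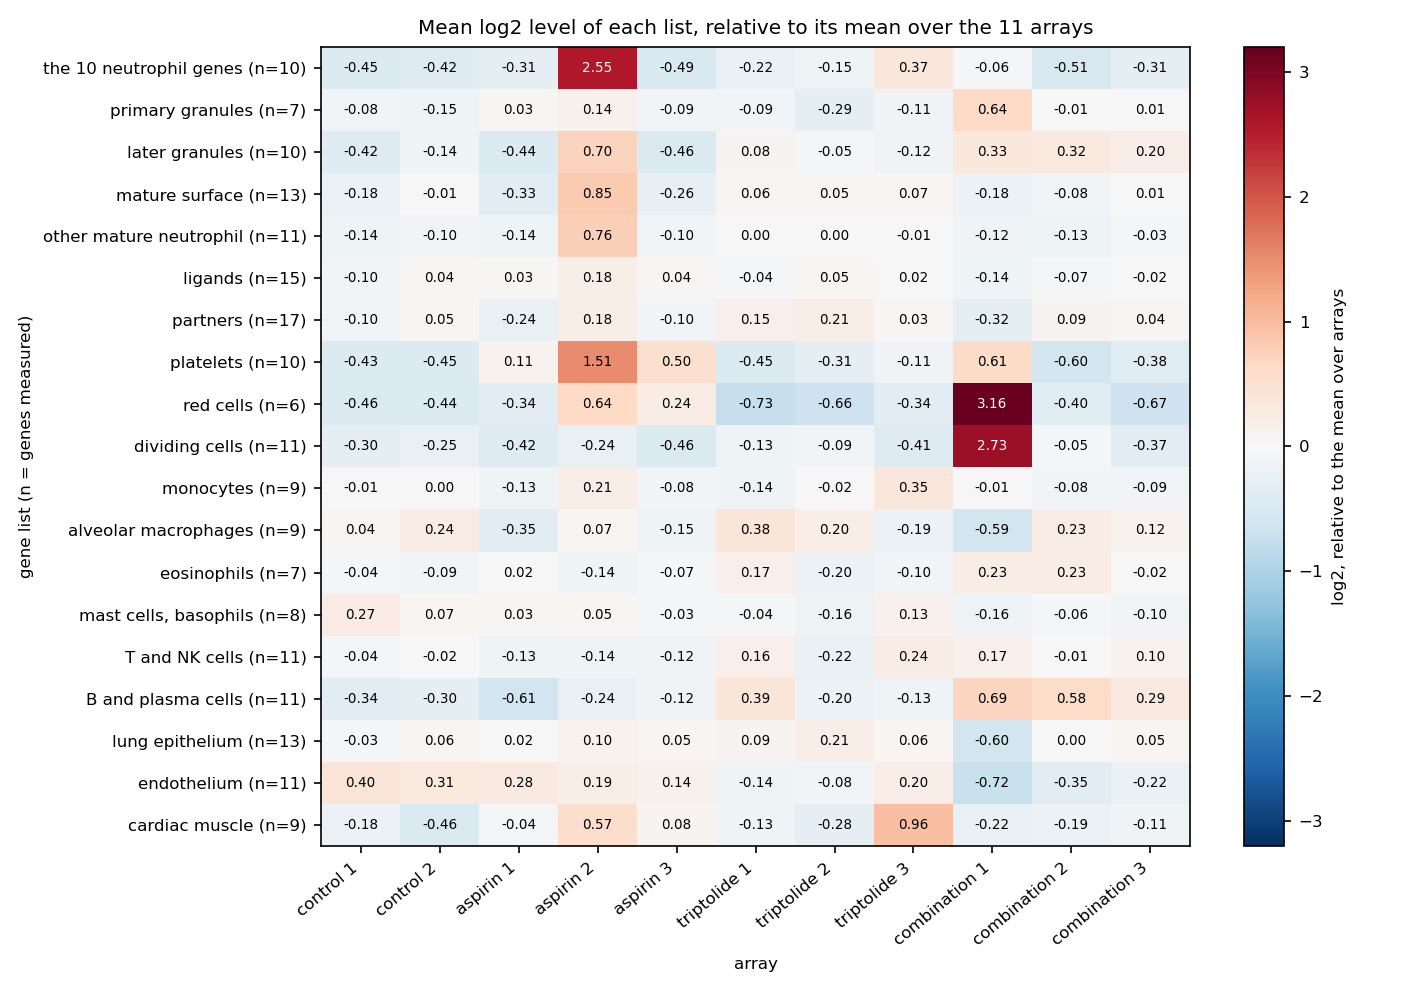
Rows are gene lists and columns the 11 arrays; each cell gives the mean log2 level of the list's measured genes relative to their mean over the arrays. The 10 neutrophil genes stand at 2.55 on aspirin 2 and at most 0.37 elsewhere, the platelet list at 1.51 on aspirin 2, and the red cell and dividing cell lists at 3.16 and 2.73 on combination 1.

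The genes whose pattern was most like the mean of the 10 over the 11 arrays, by the root mean square difference of profiles, were Il1f9 at 0.158, Slfn4 at 0.206, Ly6a2 at 0.297, Slfn1 at 0.381 and Ifitm6 at 0.382, followed by Dhrs9, Ly6g, Stfa2, Mirt2 and Rgs18 at 0.393 to 0.425. Il1f9, a cytokine of the interleukin-1 family, read 9.98 on aspirin 2 and 6.85 to 7.81 elsewhere, with triptolide 3 next. Among the 10 genes themselves Mmp9 was nearest to their mean, at 0.132, and Clec4d farthest, at 0.568. The 10 most alike genes were all highest on aspirin 2. This follows from how they were chosen, since the mean of the neutrophil genes peaks on that array, and it is not a separate result.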

How the data were processed

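RNA of mouse lung was labelled as biotinylated cDNA from 100 ng per sample and read on Affymetrix arrays, per the labels' protocols. The deposited table holds log2 values made by the authors for 35556 rows. Per the submitters' processing notes, RMA and Partek were used, with no version or setting stated. The medians of the arrays lay between 8.135 and 8.254. Rows were named from GEO's platform annotation: 21789 carried 1 symbol, 1621 several and 12146 none, and the row with the highest mean stood for each gene, leaving 19938.

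Groups came from the sample titles. limma 3.58.1 in R 4.3.3 (lmFit, eBayes) was fitted on the log2 values over all 11 arrays and 4 groups, with no covariate or filter, 7 residual and 3.68 prior degrees of freedom. Tests were two-sided and adjusted by Benjamini-Hochberg over all genes; the threshold was an adjusted p of 0.05. The members and lists were chosen with earlier results of these data known. The 10 members were always named, and of each related list the 3 genes with the largest difference between aspirin and control. Any other gene named from the related lists, such as Csf3, Cxcl1, Cxcl2, Tyrobp, Elane and Gfi1, fell outside this rule. So did the single genes named from the lists of other cells. Alternatives were other scalings, a filter, other variance models, array weights, a replicate block, a Y-linked covariate and leaving out each array. The number of arrays limits the precision, and no background level comes with the values.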

Additional observations from a re-analysis of the deposited data

How the results depend on the processing

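None of the 10 neutrophil genes passed in limma under any alternative run, in any of the 7 comparisons, but directions depended on single arrays. The filter on low values kept 8 of the 10 and dropped Il1r2 and Trem1, so these were not tested in that run. Leaving out each array in turn, the median difference of the 10 ran from -0.03 to 1.58 for aspirin against control, the lowest without aspirin 2; from 0.22 to 0.52 for triptolide; from 0.01 to 0.17 for the combination; from -1.64 to 0.07 for the combination against aspirin; from -0.40 to -0.02 against triptolide; from -0.42 to 1.11 for aspirin against triptolide; and from -2.09 to -0.16 for the interaction.

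Of the genes whose differences are given, those that changed sign when an array was left out ranged, for aspirin against control, from -0.10 to 1.60 in Cxcr2, -0.08 to 2.28 in Mmp8, -0.04 to 1.59 in Mmp9, -0.13 to 2.10 in Retnlg, -0.02 to 0.88 in Il1r2, -0.31 to 0.61 in Clec4d, -0.05 to 1.91 in Ngp, -0.01 to 2.15 in Ly6g, -0.25 to 0.72 in Clec4e, -0.24 to 0.61 in Ccr1 and -0.57 to 0.04 in Fcer1g. S100a8 ranged from -0.03 to 0.66 for the combination against control. Without aspirin 2, 8 of the 10 changed sign for the combination against aspirin and 8 for aspirin against triptolide; Mmp8 and Clec4d ranged from -2.26 to 0.10 and -0.38 to 0.55 in the former and from -0.45 to 1.91 and -0.70 to 0.23 in the latter. Retnlg ranged from -0.14 to 0.21 for the combination against triptolide and Clec4d from -0.76 to 0.16 for the interaction.

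Adding a Y-linked covariate, the median was 0.35 for aspirin against control, -0.40 for the combination against aspirin, -0.08 for triptolide against control, 0.10 for the combination against triptolide and -0.19 for the interaction. Aspirin against control then gave -0.04 in Cxcr2, 0.29 in Cybb, -0.36 in Il1b and 0.49 in Cxcr1; triptolide against control gave -0.18 in Csf3r, -0.09 in S100a9, -0.15 in Cxcr2 and -0.06 in Trem1; and aspirin against triptolide gave 0.04 in Clec4d. Within control and within aspirin the Y-linked mean spanned only 5.81 to 5.94 and 8.88 to 9.09, and with the combination 5.67 to 6.73. The slope of this covariate thus came mainly from triptolide 1, 2 and 3, at 6.55, 9.36 and 9.08. This fit therefore cannot separate aspirin from the difference in sex-linked genes, and the cause was not tested. limma's default array weights did not converge, giving aspirin 3 a weight of 43.46, so the gene-by-gene method was used, which gave it 5.98 and aspirin 2 0.62. With these weights the median was 0.20 for aspirin against control, -0.18 for the combination against aspirin, -0.41 for aspirin against triptolide, where 8 of the 10 changed sign, -0.70 for the combination against triptolide and -0.88 for the interaction. Aspirin against control gave -0.12 in Clec4d, 0.00 in Mpo and -0.05 in Clec4e; the combination against aspirin gave 0.51 in Clec4d; against triptolide it gave -0.21 in Retnlg; aspirin against triptolide gave -0.38 in Mmp8; and the interaction gave 0.20 in Clec4d. Quantile normalization gave 0.00 in Retnlg for the combination against triptolide. Ltf passed for the combination against control with array weights, at an adjusted p of 0.0411, and without combination 3, at 0.0475, and Ppbp for aspirin against control with array weights, at 0.0162.

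Over all genes the count passing was 0 in each comparison. Array weights gave 526 genes for aspirin, 10 for triptolide and 1717 for the combination against control, 873 for the combination against aspirin, 1 against triptolide, 137 for aspirin against triptolide and 16 for the interaction. For the combination against control, median centring gave 83 genes, quantile normalization 3, the filter 66, robust eBayes 60, the Y-linked covariate 96 and the replicate block 152. For the combination against aspirin, median centring, quantile normalization and the filter each gave 1 and the fit to the groups compared 2; that fit gave 4 for aspirin against control. Leaving out arrays gave 0 to 4 genes for aspirin and 0 to 3 for triptolide, the highest of both without triptolide 1. It gave 0 to 896 for the combination, 0 to 704 for the combination against aspirin, and 0 to 24 against triptolide, the highest of these 3 without combination 3. It gave 0 to 6 for the interaction, the highest without triptolide 1. The replicate numbers were not taken to pair the arrays, which would need every same-numbered pair to have a correlation of deviations over 0.1. Of such pairs 6 of 15 did, as did 4 of 30 pairs of different number, and 7 of 11 arrays correlated best with an array of their own number. These pairs share arrays and are not independent, so the counts cannot decide whether arrays of the same number share an effect. The interaction could not be fitted to the groups compared alone.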

Other observations

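Cxcr1, another receptor for neutrophil chemokines, did not go with Cxcr2. Cxcr1 read 9.19 on aspirin 2, within the 8.78 to 10.17 of the other 10 arrays, while Cxcr2 read 11.5 there against 7.65 to 9.51. Cd177 and Pglyrp1, which neutrophils store in granules, read 10.82 and 11.54 on aspirin 2 but were highest on combination 3, at 11.23, and combination 2, at 11.85. In control Cd177 read 9 and 9.97 and Pglyrp1 10.32 and 10.86, where Ly6g read 6.51 and 6.71. The part of other cells in the Cd177 and Pglyrp1 values was not tested. Cxcr1, Cd177 and Pglyrp1 were set apart here after their values were seen.

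Clec4d was the neutrophil gene least like the others, and macrophages also express it. The list of alveolar macrophage genes stood at 0.04 and 0.24 in control, -0.35, 0.07 and -0.15 with aspirin, 0.38, 0.20 and -0.19 with triptolide, and -0.59, 0.23 and 0.12 with the combination. Clec4d on the same arrays read 7.69 and 8.19, then 7.6, 9.45 and 7.66, then 8.76, 8.09 and 8.13, then 7.82, 8.37 and 8.35. Triptolide 1 was the highest array of the macrophage list and the next highest, after aspirin 2, of Clec4d. The part of macrophages in the Clec4d values was not tested.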
